A study of Bos taurus with 4 samples.

Results

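The genes described here bring fatty acids from the blood into cells and carry them inside. They are LPL, GPIHBP1, VLDLR, CD36, CAV1, SLC27A1, ACSL1, FABP4, FABP5 and FABP3, 10 of the 21861 features counted, each found by its symbol on 1 row. Their transcripts were counted in single nuclei of fat from within muscle (intramuscular) and from under the skin of the back (subcutaneous) of 2 beef steers. Each animal gave 1 library per depot, so there were 2 intramuscular and 2 subcutaneous libraries. The animals were raised alike in a commercial feedlot and received no experimental treatment. Their diet, age and breed are unknown per the labels, and no allele or strain distinguishes the groups. Fresh tissue was homogenised by Dounce and whole nuclei were loaded, so cytoplasmic transcripts were sampled only where they stayed with nuclei or floated free.

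Fat reaches tissue mostly as triglyceride packed in lipoproteins. Lipoprotein lipase (LPL), made by adipocytes and muscle fibres, is carried by GPIHBP1 across the capillary endothelium and there releases fatty acids. These pass through endothelial cells and into adipocytes or fibres with the help of CD36, caveolae built on CAV1 and transporters such as SLC27A1. Inside the cell ACSL1 activates them with coenzyme A, and small binding proteins (FABPs) carry them through the cytoplasm.

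Libraries differed in size and in content. The kept nuclei numbered 1774 and 63 in the intramuscular libraries of animals 1 and 2, against 874 and 6126 in the subcutaneous ones, and their UMIs (counted transcript molecules) numbered 2717458 and 105481, against 1138601 and 4006966. Muscle fibre markers made up 0.00342% and 0.0123% of the UMIs of the intramuscular libraries, against 5.78% and 23.8% of the subcutaneous ones, which goes against a label of fat alone. Adipocyte markers made up 1.10% and 1.63%, against 0.464% and 0.0438%. The intramuscular library of animal 2 also stood apart by its mitochondrial UMIs, 0.0133% against 1.24% to 1.65% in the other 3 libraries. Of the 6 pairs of libraries, 3 shared 1 or 2 cell barcodes and the others shared 0.

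Nuclei were assigned to types by lists of marker genes that hold none of the 10 genes. A nucleus took the type with the highest scaled marker share when at least 3 of that type's markers were seen and the share was at least 1.5 times the next. This gave 635 and 46 adipocyte nuclei in the intramuscular libraries of animals 1 and 2, against 83 and 20 in the subcutaneous ones. Endothelial nuclei numbered 190 and 1, against 113 and 128. Muscle fibre nuclei numbered 0 and 0, against 190 and 5243. Levels below are UMIs of a gene per 1000000 UMIs summed over the nuclei of a type in a library (CPM), given for sums of at least 10 nuclei. Endothelial levels therefore come from 3 libraries and fibre levels from the 2 subcutaneous ones. Levels by type are descriptions of these libraries, with no test.

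The 10 genes divided between the types. ACSL1 and LPL were at least 2-fold higher in adipocyte than in endothelial nuclei in each of the 3 libraries that held both, which was 2 of 10 genes beside 8.98% of all 9814 genes compared. FABP5 alone among them was at least 2-fold higher in endothelial than in adipocyte nuclei in each of these libraries, beside 3.96% of all genes. A type with 0 UMIs was set at a floor of 3 UMIs. GPIHBP1 was 26.3-fold and 36.0-fold higher in the intramuscular and subcutaneous libraries of animal 1. In subcutaneous animal 2 it had 14 endothelial and 0 adipocyte UMIs. The floor put that ratio at 0.84 or more, so the rule could not call GPIHBP1. ACSL1, CAV1, CD36, FABP4 and LPL, 5 of 10, were at least 2-fold higher in adipocyte than in fibre nuclei in both subcutaneous libraries, beside 31.5% of 8705 genes. No member was at least 2-fold higher in fibre than in adipocyte nuclei in both, beside 5.51% of all genes. In the small adipocyte sum of subcutaneous animal 2 (29254 UMIs), FABP3 and VLDLR had 0 UMIs, against 359 and 430 in its fibre nuclei. The floor put their ratios at 1.05 and 1.26 or more, so the rule could not call either gene. CAV1, CD36, FABP5 and GPIHBP1, 4 of 10, were that much higher in endothelial than in fibre nuclei, beside 31.4% of 8977 genes. FABP3, VLDLR and ACSL1, 3 of 10, were that much higher in fibre than in endothelial nuclei, beside 7.45%.

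**Figure D1:**
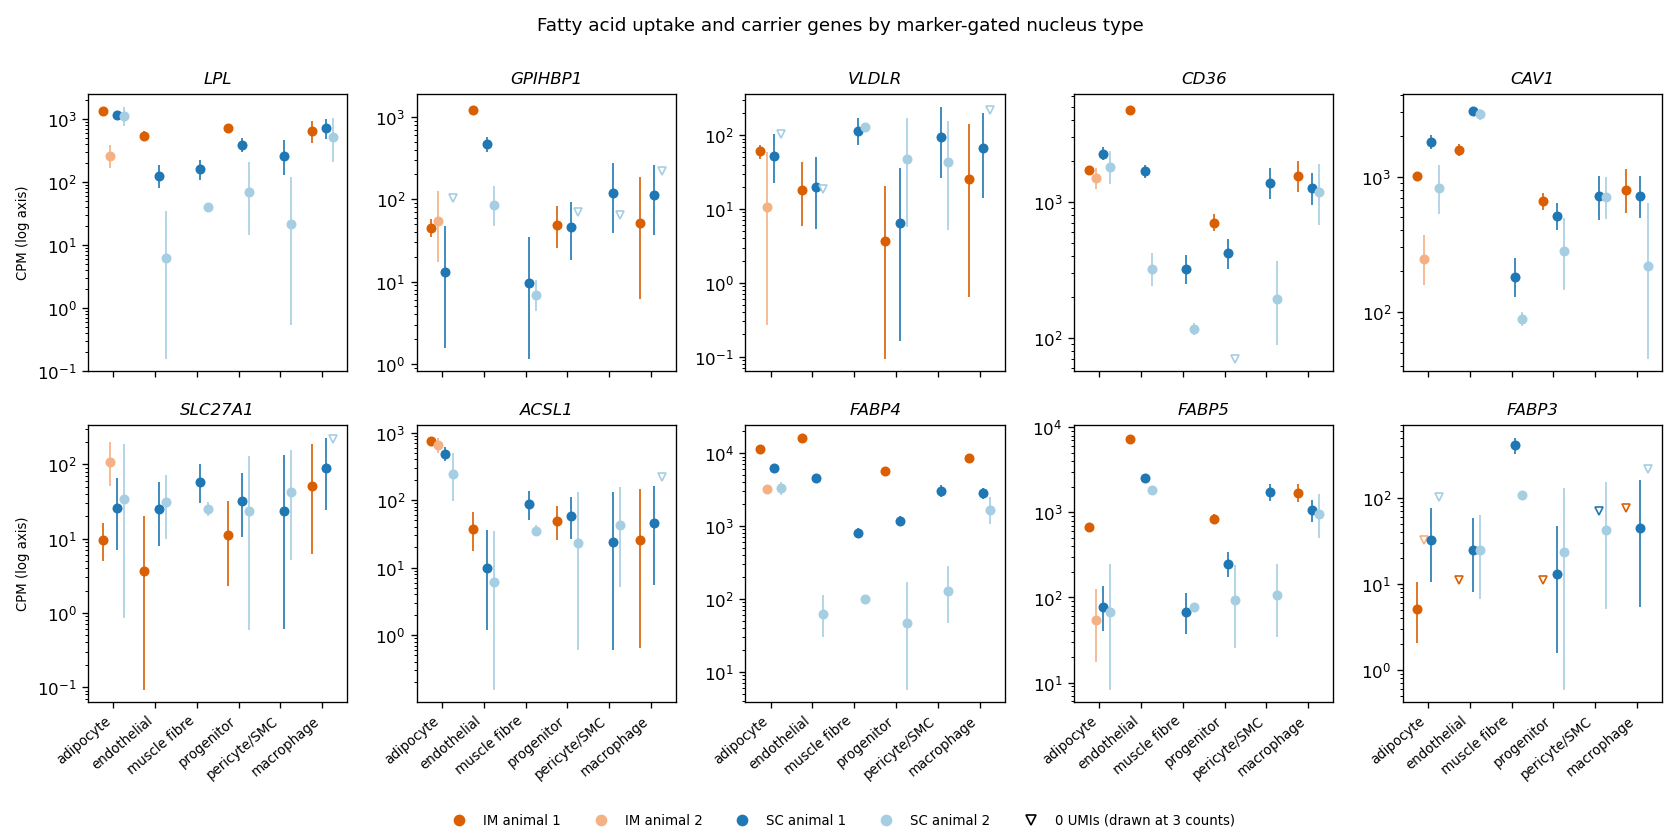
Levels of the 10 genes by marker-gated nucleus type, with 1 point per library; the vertical log axes show CPM of the type's summed UMIs, and bars are exact Poisson 95% intervals that cover counting error only. Open triangles mark 0 UMIs and are drawn at 3 counts; GPIHBP1 and FABP5 stand highest in endothelial nuclei, ACSL1 in adipocyte nuclei and FABP3 in muscle fibre nuclei.

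LPL, the lipase itself, was highest in adipocyte nuclei in each of the 3 libraries that held other types. Its level in adipocyte nuclei was 1334 and 258 CPM in intramuscular animals 1 and 2, against 1167 and 1128 in subcutaneous animals 1 and 2. Intramuscular animal 2 stood low, while the other 3 libraries lay close together, so the depots overlapped. In endothelial nuclei it was 550.0 CPM in intramuscular animal 1, against 124 and 6.16 in subcutaneous animals 1 and 2, the last from 1 UMI. The ratio of adipocyte to endothelial nuclei was 2.42 (95% interval 2.05 to 2.88) in intramuscular animal 1 and 9.39 (6.16 to 14.9) in subcutaneous animal 1. Fibre nuclei held 159 and 39.6 CPM in the subcutaneous libraries. Progenitor nuclei (fibroblast-like cells of the fat) held 717 in intramuscular animal 1, against 390.2 and 70.2 in the subcutaneous animals, and macrophage nuclei held 643, against 719.8 and 512. Macrophage nuclei were thus next to adipocyte nuclei in the order of levels in both subcutaneous libraries, and the endothelial level was the lowest of the 6 types there. The subcutaneous macrophage nuclei numbered 34 and 10, and the level of 512 rests on 7 UMIs. Adipocyte markers made up 0.481% of macrophage UMIs in intramuscular animal 1, against 0.346% and 0.0365% in the subcutaneous animals. Their part in these levels was not tested.

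GPIHBP1, the endothelial protein that binds LPL, was highest in endothelial nuclei in all 3 libraries with enough of them. Its level there was 1195 CPM in intramuscular animal 1, against 467 and 86.2 in subcutaneous animals 1 and 2. Adipocyte nuclei held 45.4 and 53.8 in the intramuscular libraries, against 13 and 0 in the subcutaneous ones, and fibre nuclei held 9.61 and 6.89. The ratio of endothelial to adipocyte nuclei was 26.3 (95% interval 20.01 to 35.1) in intramuscular animal 1 and 36.0 (9.70 to 302) in subcutaneous animal 1, where adipocyte nuclei held 2 UMIs. Subcutaneous animal 2 had 14 UMIs in endothelial and 0 in adipocyte nuclei, too few for a bound above 1. The other types stood below the endothelial level in each library, with 48.3, 45.5 and 0 in progenitor nuclei and 51.5, 112 and 0 in macrophage nuclei of intramuscular animal 1 and subcutaneous animals 1 and 2.

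The share of nuclei with a GPIHBP1 UMI followed the same order after each nucleus was thinned to 500 UMIs. It was 30% of endothelial nuclei in intramuscular animal 1 (exact Clopper-Pearson 95% interval 23.6% to 37.1%), against 16.2% (9.72% to 24.7%) and 3.81% (1.05% to 9.47%) in the subcutaneous animals. Without thinning these shares were 55.8%, 19.5% and 7.81%, at median depths of 916.5, 1066 and 765 UMIs. Fibre nuclei, which should lack the gene, held a UMI in 0 of 160 thinned nuclei in subcutaneous animal 1 and in 0.288% in subcutaneous animal 2, and in 1.05% and 0.362% before thinning, at median depths of 781 and 515 UMIs. The endothelial share in subcutaneous animal 2 was above that of its fibres by its interval, though small.

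VLDLR, a receptor for triglyceride-rich lipoproteins, was higher in fibre than in endothelial nuclei. Its level in fibre nuclei was 115 and 129 CPM in subcutaneous animals 1 and 2, and in endothelial nuclei 19.9 and 0 in the same libraries. The ratio of fibre to endothelial nuclei was 5.80 (95% interval 1.99 to 23.0) in subcutaneous animal 1, and fibres were at least 6.98-fold higher in subcutaneous animal 2, with endothelial nuclei set at a floor of 3 UMIs. Adipocyte nuclei held 60.0 and 10.8 CPM in the intramuscular libraries, against 51.9 and 0 in the subcutaneous ones. The ratio of fibre to adipocyte nuclei was 2.22 (0.97 to 5.72) in subcutaneous animal 1, an interval that includes no difference. In the gene table, which is of another assembly than the counts, a locus overlaps VLDLR, and likewise CAV1 and FABP5. Whether these loci are in the annotation used for the counts is unknown, and their bearing on the UMIs of these 3 genes was not tested.

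CD36, the membrane protein that takes up long-chain fatty acids, was abundant in both adipocyte and endothelial nuclei. Adipocyte nuclei held 1709.9 and 1486 CPM in intramuscular animals 1 and 2, against 2257 and 1812 in subcutaneous animals 1 and 2, so its adipocyte level lay within a 1.52-fold range. Endothelial nuclei held 4729.9 in intramuscular animal 1, against 1671 and 320.1 in the subcutaneous animals. Which type stood higher thus differed by library. The ratio of endothelial to adipocyte nuclei was 2.77 (95% interval 2.58 to 2.96) in intramuscular animal 1, 0.74 (0.64 to 0.86) in subcutaneous animal 1 and 0.18 (0.12 to 0.26) in subcutaneous animal 2. Fibre nuclei held 322 and 116 CPM in the subcutaneous libraries, below both other types in each. Macrophage nuclei held 1544 in intramuscular animal 1, against 1259.7 and 1169.5 in the subcutaneous animals, below the adipocyte level of each library.

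CAV1, the core protein of caveolae, was higher in endothelial than in adipocyte nuclei in each library with both. Endothelial nuclei held 1573 CPM in intramuscular animal 1, against 3034 and 2887 in the subcutaneous animals. Adipocyte nuclei held 1003 and 248 in the intramuscular libraries, against 1809 and 820.4 in the subcutaneous ones. The ratio of endothelial to adipocyte nuclei was 1.57 (95% interval 1.40 to 1.75) in intramuscular animal 1, 1.68 (1.45 to 1.94) in subcutaneous animal 1 and 3.52 (2.34 to 5.55) in subcutaneous animal 2. Fibre nuclei held 183 and 89.3, the lowest level of the 6 types in both subcutaneous libraries. Both subcutaneous endothelial values were above the intramuscular one, unlike those of LPL, GPIHBP1, CD36, FABP4 and FABP5.

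SLC27A1 (FATP1), a fatty acid transporter of muscle and fat, was sparse in all types. Adipocyte nuclei held 9.52 and 108 CPM in the intramuscular libraries, against 25.9 and 34.2 in the subcutaneous ones, from 13, 10, 4 and 1 UMIs. Fibre nuclei held 57.7 and 25.5 from 12 and 85 UMIs, and endothelial nuclei held 3.67 in intramuscular animal 1, against 24.9 and 30.8 in the subcutaneous animals. Intramuscular animal 2 was the highest value in adipocyte nuclei, and no order of types held across the libraries. The ratio of fibre to endothelial nuclei was 2.32 (95% interval 0.76 to 8.40) in subcutaneous animal 1 and 0.83 (0.34 to 2.61) in subcutaneous animal 2, both including no difference.

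ACSL1, which joins coenzyme A to long-chain fatty acids, was highest in adipocyte nuclei in each of the 3 libraries that held other types. Its level there was 751 and 657 CPM in intramuscular animals 1 and 2, against 479.9 and 239 in subcutaneous animals 1 and 2. Both intramuscular values were above both subcutaneous ones, although the last rests on 7 UMIs. Endothelial nuclei held 36.7 in intramuscular animal 1, against 9.95 and 6.16 in the subcutaneous animals, and fibre nuclei held 86.5 and 35.1. The ratio of adipocyte to endothelial nuclei was 20.5 (95% interval 11.1 to 42.8) in intramuscular animal 1. In subcutaneous animals 1 and 2 it was 48.3 (12.9 to 406) and 38.9 (4.99 to 1752), over 2 and 1 endothelial UMIs. Progenitor nuclei held 48.3, 58.5 and 23.4, and macrophage nuclei 25.7, 45.0 and 0, in intramuscular animal 1 and subcutaneous animals 1 and 2, so the adipocyte level stood apart from all other types.

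FABP4, the binding protein of adipocytes that capillary endothelium also makes, varied widely across libraries. Adipocyte nuclei held 11415 and 3187 CPM in the intramuscular libraries, against 6187 and 3316 in the subcutaneous ones. Endothelial nuclei held 15931 in intramuscular animal 1, against 4565 and 61.6 in the subcutaneous animals. As for CD36, the type that stood higher differed by library, with a ratio of endothelial to adipocyte nuclei of 1.40 (95% interval 1.35 to 1.44) in intramuscular animal 1, 0.74 (0.67 to 0.81) in subcutaneous animal 1 and 0.02 (0.01 to 0.04) in subcutaneous animal 2. FABP4 was also high where neither type was counted. Macrophage nuclei held 8571 in intramuscular animal 1, against 2834 and 1681 in the subcutaneous animals, and progenitor nuclei held 5763, against 1184 and 46.8. In intramuscular animal 1 a FABP4 UMI was seen in 97.1% of progenitor nuclei, at a median depth of 721 UMIs, and in 92.3% after thinning. Free RNA gives UMIs to nuclei that do not express a gene, and its part in these levels was not tested.

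FABP4 was also counted per 100 UMIs of the adipocyte markers. In intramuscular animal 1 it was 575 in endothelial, 227 in progenitor, 178 in macrophage and 69.1 in adipocyte nuclei. In subcutaneous animal 1 it was 746 in endothelial, 256 in pericyte and smooth muscle, 81.8 in macrophage, 71.0 in fibre, 65.9 in progenitor and 38.1 in adipocyte nuclei. In subcutaneous animal 2 it was 25.0 in endothelial, 35.6 in fibre and 20.7 in adipocyte nuclei, and the other types held at most 14 marker UMIs. Every other type thus stood above adipocyte nuclei in animal 1, endothelial nuclei the most. The assignment of nuclei favours a low adipocyte-marker share outside adipocytes, so the denominator is not independent of the type.

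FABP5, a binding protein of endothelial and immune cells, was highest in endothelial nuclei. Its level there was 7253 CPM in intramuscular animal 1, against 2511 and 1847 in the subcutaneous animals. Adipocyte nuclei held 668 and 53.8 in the intramuscular libraries, against 77.8 and 68.4 in the subcutaneous ones. The ratio of endothelial to adipocyte nuclei was 10.9 (95% interval 10.0 to 11.8) in intramuscular animal 1, 32.3 (18.3 to 62.9) in subcutaneous animal 1 and 27.0 (7.41 to 224) in subcutaneous animal 2, over 2 adipocyte UMIs. Fibre nuclei held 67.3 and 76.7, close to the subcutaneous adipocyte level. Macrophage nuclei came next after endothelial ones in intramuscular animal 1 and subcutaneous animal 2, with 1699 in intramuscular animal 1, against 1057 and 950.2 in the subcutaneous animals. In subcutaneous animal 1 the 45 pericyte and smooth muscle nuclei held 1735, above its macrophages.

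FABP3, the binding protein of heart and muscle, was the gene of fibre nuclei. Its level there was 409 and 108 CPM in subcutaneous animals 1 and 2, and endothelial nuclei of the same libraries held 24.9 and 24.6. The ratio of fibre to endothelial nuclei was 16.4 (95% interval 6.77 to 51.9) in subcutaneous animal 1 and 4.37 (1.69 to 16.1) in subcutaneous animal 2. Adipocyte nuclei held 5.13 and 0 in the intramuscular libraries, against 32.4 and 0 in the subcutaneous ones, so that fibres were 12.6-fold higher (5.19 to 39.8) in subcutaneous animal 1 and at least 1.05-fold higher in subcutaneous animal 2, over the floor of 3 UMIs. After thinning to 500 UMIs, 15% of fibre nuclei in subcutaneous animal 1 (95% interval 9.85% to 21.5%) and 4.43% in subcutaneous animal 2 (3.69% to 5.26%) held a FABP3 UMI. Endothelial nuclei, taken as a type that lacks it, held one in 0 of 105 and in 1.90% (0.232% to 6.71%). Unthinned, the shares were 25.8% and 6.01% of fibre nuclei, at median depths of 781 and 515 UMIs, and 2.65% and 2.34% of endothelial nuclei, at 1066 and 765 UMIs.

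FABP3 was counted per 100 UMIs of the fibre markers in the same way. In subcutaneous animal 1 it was 0.181 in fibre and 0.255 in endothelial nuclei, and in subcutaneous animal 2 it was 0.0409 and 0.0457. The endothelial values rest on 5 and 4 UMIs, and every other assigned type held at most 5 in each subcutaneous library. The 7 FABP3 UMIs of the intramuscular libraries all lay in adipocyte nuclei of animal 1.

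Fibre nuclei were split by slow (MYH7-type) and fast (MYH1- and MYH2-type) contractile markers after the data were seen. FABP3 in slow fibre nuclei was 673 and 294 CPM in subcutaneous animals 1 and 2, from 61 and 97 nuclei, and in fast fibre nuclei 287 and 88.8, from 115 and 4796 nuclei. CD36 had the same order, with 449 and 173 in slow and 279 and 107 in fast fibre nuclei. So did ACSL1, with 140.3 and 51.9 in slow and 50.7 and 30.8 in fast, and SLC27A1, with 98.2 and 69.1 in slow and 42.2 and 21.1 in fast, from 6 to 10 UMIs in each slow sum. These 4 genes were thus higher in slow than in fast fibre nuclei in both libraries, as a description. The exact intervals of slow and fast lay apart for FABP3 in both libraries and for SLC27A1 in subcutaneous animal 2. They overlapped for SLC27A1 in subcutaneous animal 1 and for CD36 and ACSL1 in both libraries.

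CAV1 and FABP4 had the opposite order in both libraries. CAV1 was 182 and 43.2 CPM in slow and 203 and 92.5 in fast fibre nuclei, and FABP4 was 758 and 43.2 in slow and 878 and 102 in fast. The exact intervals of slow and fast overlapped for both genes in both libraries. The slow sum of subcutaneous animal 2 held 5 UMIs of each gene. VLDLR, LPL, FABP5 and GPIHBP1 changed order between the libraries. VLDLR was 112 and 60.5 in slow and 101 and 135 in fast, and LPL was 70.2 and 104 in slow and 203 and 36.2 in fast. Nuclei with neither kind of marker at least 2 times the other numbered 14 and 350. In subcutaneous animal 2 they held 202 of CD36, 80.1 of ACSL1 and 84.3 of VLDLR, above the slow level of each, and 253 of FABP3, below it. Median depths were 836 and 953 UMIs in slow and 746 and 509 in fast fibre nuclei.

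Endothelial nuclei were divided by vessel markers. Capillary-marked nuclei had a UMI of RGCC, CA4, BTNL9 or CD300LG and none of the arterial, venous and lymphatic markers, and other-vessel-marked nuclei the reverse. Capillary-marked nuclei numbered 65 in intramuscular animal 1, against 20 and 21 in the subcutaneous animals, and other-vessel-marked nuclei 15, against 53 and 37. Nuclei with both kinds of marker numbered 100, against 17 and 21, and nuclei with neither numbered 10, against 23 and 49.

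CD36, FABP5 and GPIHBP1 were higher in capillary-marked than in other-vessel-marked nuclei of each library. CD36 there was 5117 CPM in intramuscular animal 1, against 4836 and 785 in the subcutaneous animals, and in other-vessel-marked nuclei 2072, against 142 and 28.9. Their ratio, capillary-marked over other-vessel-marked, was 2.47 (95% interval 1.69 to 3.74) in intramuscular animal 1, 34.2 (20.3 to 61.5) in subcutaneous animal 1 and 27.1 (6.44 to 242) in subcutaneous animal 2, over 2 UMIs. FABP5 in capillary-marked nuclei was 8869 in intramuscular animal 1, against 9966 and 4201 in the subcutaneous animals, with ratios of 3.03 (2.21 to 4.26), 41.7 (28.1 to 64.5) and 15.3 (9.25 to 26.5). GPIHBP1 there was 1164, against 1099 and 231, and in all endothelial nuclei of intramuscular animal 1 it was 1195. In subcutaneous animal 1 it was at least 41.4-fold higher than in other-vessel-marked nuclei, which held 0 UMIs and were set at 3.

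Within capillary-marked nuclei both libraries of animal 1 were close for CD36, GPIHBP1, FABP4 and FABP5, and further apart for LPL and CAV1. The first 4 differed by at most 1.12-fold between its depots, and FABP4 was 16861 and 16854 CPM. Subcutaneous animal 2 was lower for all 4, with the CD36, FABP5 and GPIHBP1 levels above resting on 17, 91 and 5 UMIs. FABP4 had 0 of 21662 UMIs there, which allows up to 138 CPM at 3 counts. CAV1 had no such division, with 1596, 2308 and 2862 in capillary-marked nuclei and 857, 3519.9 and 3401 in other-vessel-marked nuclei of intramuscular animal 1 and subcutaneous animals 1 and 2. LPL was 517, 183 and 0 in capillary-marked and 500.2, 79.6 and 0 in other-vessel-marked nuclei, and its ratio intervals included no difference. ACSL1, SLC27A1, VLDLR and FABP3 had at most 3 UMIs in either kind of nucleus in each library.

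**Figure D2:**
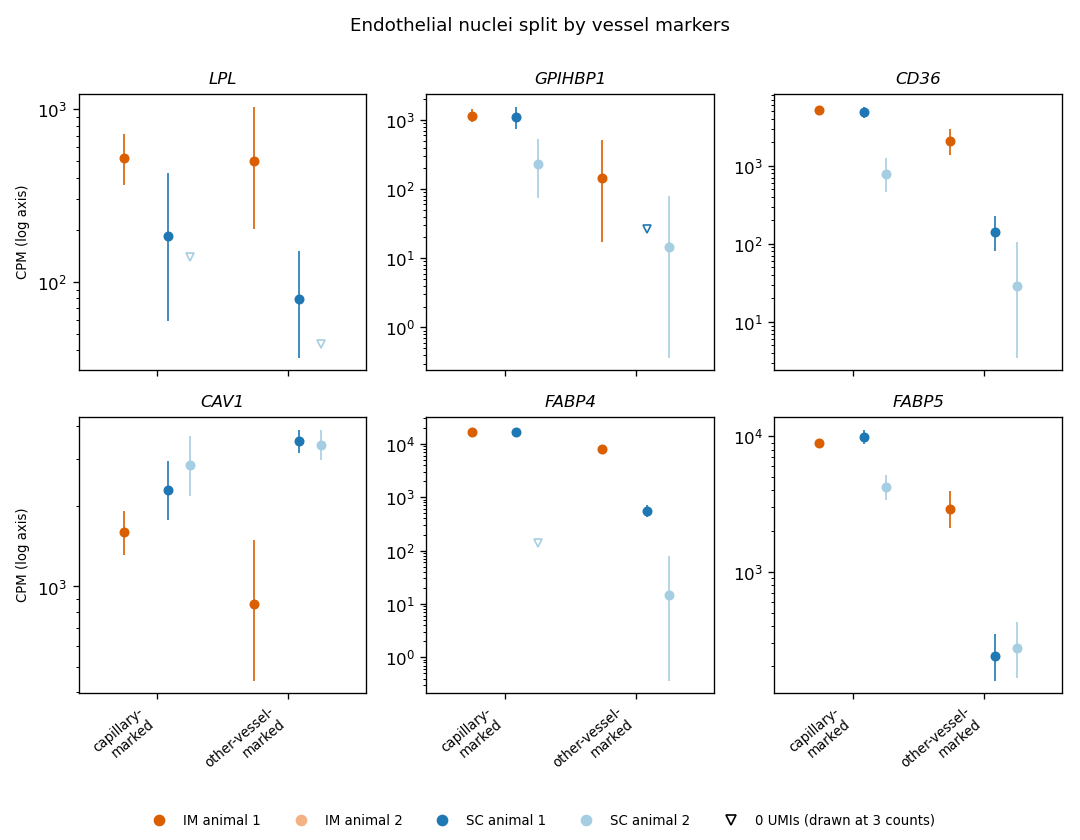
Levels of 6 genes in endothelial nuclei with capillary markers alone and with arterial, venous or lymphatic markers alone; vertical log axes show CPM, bars are exact Poisson 95% intervals, and open triangles are 0 UMIs drawn at 3 counts. Only 3 libraries have points, since the intramuscular library of animal 2 held 1 endothelial nucleus; CD36, FABP5 and GPIHBP1 are higher in capillary-marked nuclei in each library, and CAV1 is not.

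The types that held most of each gene's UMIs followed both level and number of nuclei. Adipocyte nuclei held 85.0% of the ACSL1 and 61.9% of the LPL UMIs of intramuscular animal 1, while they held 50.3% of all its UMIs. Endothelial nuclei held 59.6% of its GPIHBP1 and 45.7% of its FABP5 UMIs, and 10.0% of all UMIs. In subcutaneous animal 1 endothelial nuclei held 58.4% of the GPIHBP1 and 51.1% of the FABP5 UMIs, and 17.7% of all UMIs, and fibre nuclei held 69.7% of the FABP3 UMIs and 18.3% of all. In subcutaneous animal 2 fibre nuclei held 83.3% of all UMIs and so most UMIs of 7 of the 10 genes. Its LPL UMIs lay to 67.3% in fibre and 16.8% in adipocyte nuclei, although the level in CPM was 28.5-fold higher in adipocyte nuclei (95% interval 18.9 to 42.0).

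**Figure D3:**
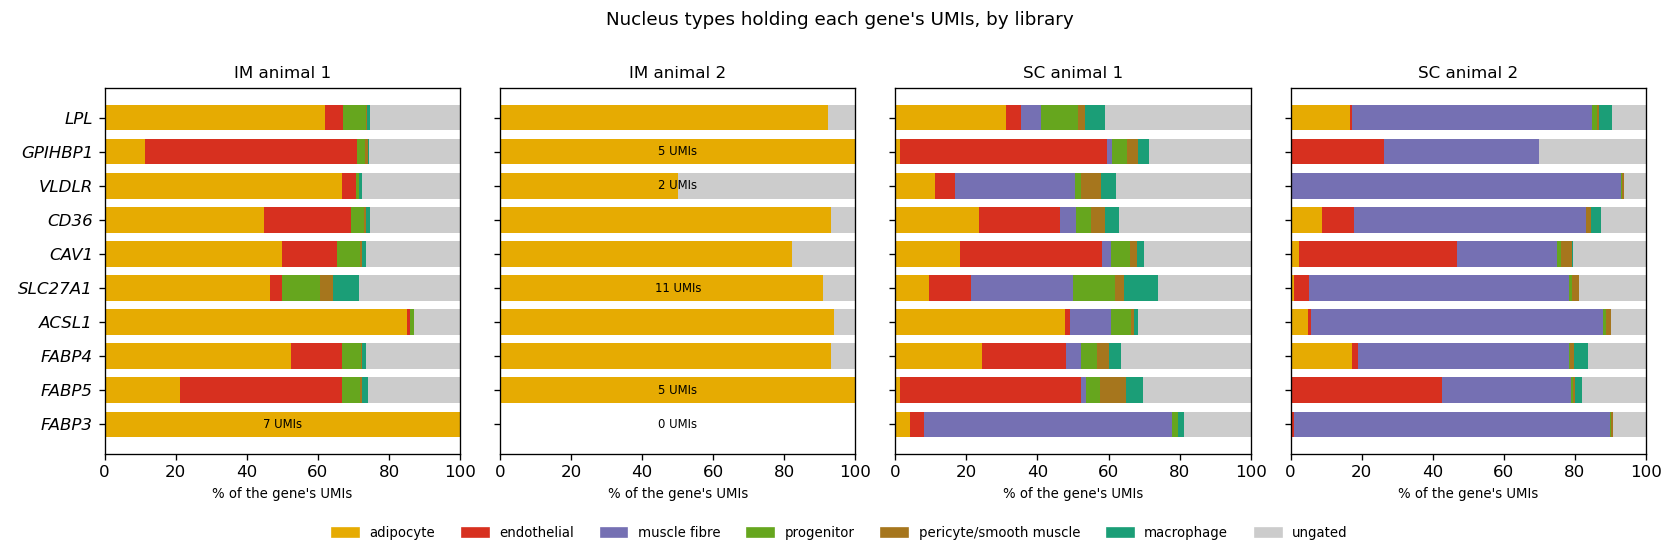
Share of each gene's UMIs in each library (horizontal axis, percent) by the type of nucleus that held them, with 1 panel per library. Counts are printed on bars of 11 or fewer UMIs; fibre nuclei take no share in the intramuscular libraries and most UMIs of 7 genes in subcutaneous animal 2.

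The depots were compared on UMI sums per library, with 2 libraries each, by the quasi-likelihood test of edgeR, and p-values were adjusted by Benjamini and Hochberg's method over all genes tested. In all nuclei and in adipocyte nuclei the p-values measure the spread between libraries of 2 animals. Over all nuclei of a library, fewer nuclei of a type and less RNA per nucleus cannot be told apart. FABP3 was the 1 of 10 members past the threshold, beside 1.53% of 11143 genes. These were 6 genes higher in intramuscular libraries (0.0538%) and 164 lower (1.47%). It had 2.58 and 0 CPM in the intramuscular libraries, against 107 and 101 in the subcutaneous ones, and a log2 fold change of -6.21 (SE 1.15, edgeR adjusted p = 0.0337). The depots did not overlap. Of the 25 fibre markers, 9 and 19 were at 0 in the intramuscular libraries and none in the subcutaneous ones. Without fibre and satellite nuclei the fold change was -4.47 (SE 0.88, edgeR adjusted p = 0.0806), and without the intramuscular library of animal 1 it was -10.41 (SE 3.20, edgeR adjusted p = 0.0637).

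The other 9 genes did not pass in whole libraries. VLDLR had 45.3 and 19.0 CPM in the intramuscular libraries, against 62.4 and 116 in the subcutaneous ones, without overlap (log2 fold change -2.31, SE 0.96, edgeR adjusted p = 0.404). ACSL1 had 444 and 616, against 136 and 35.4, also without overlap (2.12, SE 1.03, edgeR adjusted p = 0.489). FABP4 had 10969 and 3015, against 3432 and 139.8, and its depots overlapped. LPL had 1082 and 246, against 509 and 48.9, also with overlap. CD36 had 1923 and 1403, against 1299 and 147, without overlap, at a log2 fold change of 0.91 (SE 1.47). GPIHBP1 had 201 and 47.4, against 141 and 13.2. CAV1 had 1011 and 265, against 1339 and 264. FABP5 had 1594 and 47.4, against 868 and 177. SLC27A1 had 10.3 and 104, against 36.9 and 28.9, and these last 4 genes overlapped between depots, with log2 fold changes from -0.66 to 0.56. The median log2 fold change was 0.46 over the 10 genes and -0.16 over all genes tested. The median of the 10 genes did not keep its sign under other settings. It was -0.18 with the animal as a block, and moved between -0.82 and 1.64 as each library was left out in turn.

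Within adipocyte nuclei no member differed between the depots by the test. LPL, CD36, CAV1, ACSL1 and FABP4 had enough UMIs to be tested, and 0 of these 5 passed, beside 0.714% of 3082 genes, all 22 lower in intramuscular nuclei. At an unadjusted p under 0.05, 100 genes and 0 of the 5 passed, and DESeq2 also called 0 members. ACSL1 had a log2 fold change of 1.08 (SE 0.74, edgeR adjusted p = 0.99964), with both intramuscular values above both subcutaneous ones. CD36 also did not overlap, with both intramuscular values below. The values of FABP4 were 0.80 (SE 0.81), of CD36 -0.19 (SE 0.68), of LPL -0.33 (SE 0.87) and of CAV1 -0.89 (SE 0.87). With the animal as a block, edgeR called 35 genes in place of 22 and 0 of the 5 members. Fibre markers made up 0.00256% and 0.0129% of the UMIs of intramuscular adipocyte nuclei, against 1.08% and 4.39% of the subcutaneous ones, and their part in these comparisons was not tested. Without the intramuscular library of animal 1, CAV1 (-2.48) and LPL (-2.17) were called lower in intramuscular nuclei, with edgeR adjusted p = 0.00897 and 0.0239, since intramuscular animal 2 was low for both. Without the intramuscular library of animal 2, FABP5 came to be tested and was called higher (3.41, edgeR adjusted p = 0.00437).

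In endothelial nuclei 1 intramuscular library was set against 2 subcutaneous ones, so the intramuscular spread could not be measured. The SEs were alike for the 6 members tested (0.49 to 0.55). The subcutaneous values, in contrast, lay far apart for FABP4 (4565 and 61.6 CPM) and LPL (124 and 6.16 CPM). The calls thus do not rest on each gene's own spread between animals. LPL, FABP4, CD36, GPIHBP1 and FABP5, 5 of the 6 members tested, were higher in the intramuscular library, beside 3.85% of 5249 genes called higher, 4.84% called lower and 8.69% in either direction. The log2 fold changes were 3.14 for LPL (SE 0.51), 2.95 for FABP4 (SE 0.50) and 2.39 for CD36 (SE 0.51). They were 2.24 for GPIHBP1 (SE 0.49) and 1.85 for FABP5 (SE 0.50). CAV1 did not pass (-0.81, SE 0.55). Both subcutaneous values lay below the intramuscular one for each of the 5 genes.

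These 5 calls held in edgeR with DESeq2's size factors, with no count filter, in nuclei of at least 500 genes and with at least 4 markers, and ended under other settings. DESeq2 called 0 of the members, at log2 fold changes of 3.23 for LPL, 2.95 for FABP4, 2.39 for CD36, 2.25 for GPIHBP1 and 1.86 for FABP5. A gate with a ratio of 2 also gave 0 in edgeR, at 3.11, 2.91, 2.41, 2.22 and 1.85 for the same genes. These fold changes were near those above. Capillary-marked nuclei alone gave 0 as well, with smaller ones. On capillary-marked nuclei the log2 fold change was 0.92 for CD36 (SE 1.10), 0.83 for GPIHBP1 (SE 0.72), 0.36 for FABP5 (SE 1.39), 1.08 for FABP4 (SE 1.52) and 2.42 for LPL (SE 1.65). With clusters in place of the gate, none of the 5 passed and FABP3 was lower (-7.51). The endothelial clusters also held 101 nuclei assigned to muscle fibres and 215 left unassigned, beside 329 endothelial ones. The part of those nuclei in the FABP3 value was not tested. Nuclei with both or only capillary markers were 165 of 190 in the intramuscular library, against 37 of 113 and 42 of 128 in the subcutaneous ones. Adipocyte markers also moved with the result. They made up 0.277% of the UMIs of intramuscular endothelial nuclei, with 15 of 17 markers seen, against 0.0612% with 15 of 17 and 0.0246% with 10 of 17 in the subcutaneous ones. ADRB3 and TRHDE were at 0 in the intramuscular nuclei, TRHDE and MLXIPL in subcutaneous animal 1, and ADIPOQ, PLIN1, CIDEC, LEP, ADRB3, TRHDE and MLXIPL in subcutaneous animal 2. Fibre markers made up 0.0022% of the UMIs of intramuscular endothelial nuclei, against 0.976% and 5.39% in the subcutaneous ones. Of the 25 fibre markers, 21 were at 0 in the intramuscular nuclei. The part of capillary, adipocyte or fibre markers in these calls was not tested.

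An edgeR fit added after the data were seen held 1 intramuscular and 2 subcutaneous libraries. The intramuscular spread could thus not be measured, and a gene that did not pass is not shown to be alike between depots. In this fit the gap between endothelial and adipocyte nuclei, intramuscular minus subcutaneous, was tested. It passed for 0 of the 8 members tested, beside 0.765% of 6798 genes, 0.25% with a higher and 0.515% with a lower difference in the intramuscular library. At an unadjusted p under 0.05, 499 genes and 3 of the 8 members passed. These 3 were LPL (log2 difference 2.85, SE 0.82, edgeR adjusted p = 0.0556), CD36 (2.70, SE 1.00, edgeR adjusted p = 0.305) and FABP4 (3.04, SE 1.38, edgeR adjusted p = 0.549). The others were ACSL1 (0.99), VLDLR (-0.36), GPIHBP1 (-0.51), CAV1 (-0.73) and FABP5 (-1.60).

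**Figure D4:**
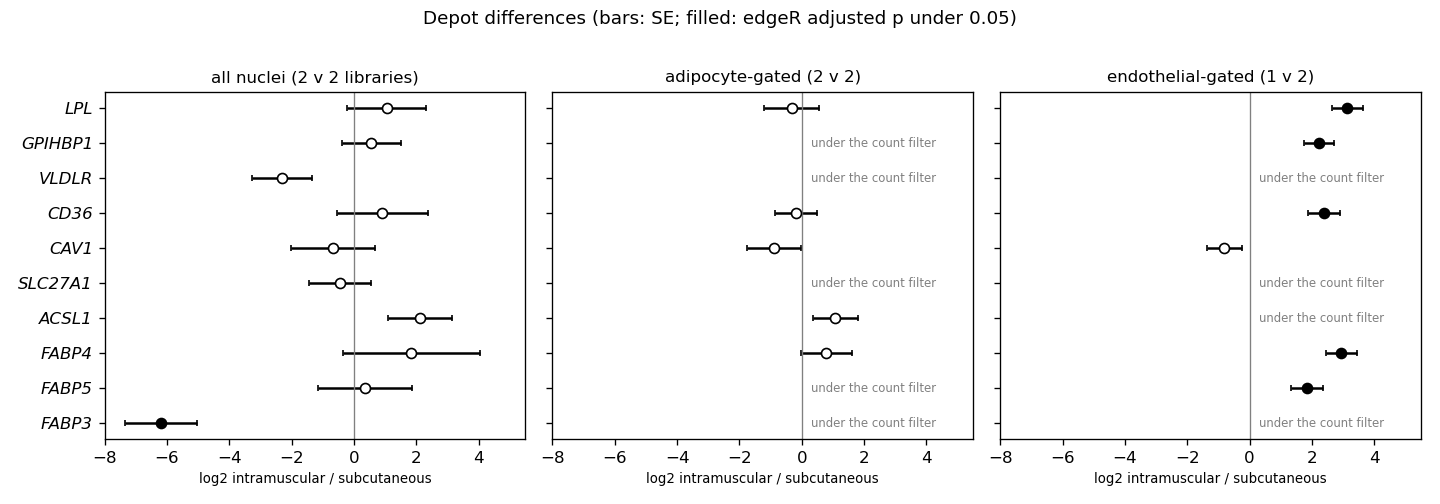
Log2 fold change of intramuscular over subcutaneous libraries (horizontal axis) for the 10 genes in all nuclei, adipocyte nuclei and endothelial nuclei, with bars of 1 SE from edgeR; filled points have an adjusted p under 0.05. FABP3 is the only filled point in all nuclei, none is filled in adipocyte nuclei, and 5 of 6 are filled to the right of 0 in endothelial nuclei.

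A wider list of 46 genes of fatty acid uptake and carriage was followed beside the 10. In whole libraries 33 of them were tested, 0 were higher and 1 was lower in intramuscular libraries, with a median log2 fold change of -0.28 beside -0.16 over all genes. That gene was CAV3, the caveolin of muscle fibres, with 0 and 0 UMIs in the intramuscular libraries, against 38 and 271 in the subcutaneous ones (edgeR adjusted p = 0.0337). In adipocyte nuclei 13 were tested and 0 passed in either direction, with a median of 0.09 beside 0.09 over all genes.

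In endothelial nuclei 22 of the 46 were tested, 5 were higher and 2 lower in the intramuscular library, with a median of -0.22 beside -0.02. The 5 were APOE (a lipoprotein ligand), ANGPTL4 (an inhibitor of LPL), PPARG (a regulator of fat genes), DBI (a carrier of acyl-coenzyme A) and LRP1 (a lipoprotein receptor). APOE had 2457 CPM in intramuscular endothelial nuclei, against 482 and 135 in the subcutaneous ones. PPARG had 576, against 129 and 30.8, and ANGPTL4 had 356, against 69.6 and 18.5. Adipocyte nuclei held 828 and 872 CPM of PPARG in the intramuscular libraries, against 1005 and 718 in the subcutaneous ones, more than the endothelial nuclei of each. The 2 lower were CAVIN2, which shapes caveolae, and PLTP, which moves phospholipid between lipoproteins. CAVIN2 had 147 CPM, against 726 and 597, and PLTP had 3.67, from 1 UMI, against 144 and 80.03. These calls came from the same fit of 1 intramuscular against 2 subcutaneous libraries. In it 3.85% of all genes tested were called higher and 4.84% lower. The list was not followed under the other settings. Capillary, adipocyte and fibre markers also differed between these nuclei, as given above, and their part in these calls was not tested.

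The most abundant genes of some roles were as follows. CAVIN4, a caveolar protein of muscle, held 303 and 296 CPM in fibre nuclei of the subcutaneous animals, and 25.9 and 68.4 in their adipocyte nuclei. CAVIN1, needed for caveolae in general, held 1177 in endothelial nuclei of intramuscular animal 1, against 1865 and 1108 in the subcutaneous animals. MEOX2, an endothelial transcription factor that with TCF15 drives fatty acid transport genes in heart capillaries of mice, held 403, against 264 and 240, in endothelial nuclei, while its level in adipocyte nuclei was 32.2 and 32.3 in the intramuscular libraries, against 58.4 and 34.2 in the subcutaneous ones. TCF15 held 110.0, against 89.5 and 296 in endothelial nuclei of the same libraries. SLC27A2, FABP6 and FABP12, named after their values were seen, had 0 UMIs in all 4 libraries.

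The 3 genes most like each member, outside the members and markers, were named by Pearson's r of log2(CPM + 10) over the 17 sums of a type in a library. These sums share libraries and differ in depth, so r is a description with no p. They were taken among 5032 genes that reached 50 CPM in a sum and 200 UMIs in all. For FABP4 they were SCD (r = 0.94), a desaturase of fatty acids, PPARG (0.86) and S100G (0.86). For LPL the named ones were FDX1 (0.93) and IDH1 (0.92), and for ACSL1 they were FGF1 (0.91), B3GNT6 (0.90) and TMEM120A (0.90).

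For GPIHBP1 they were PLK2 (r = 0.88), TSPAN13 (0.84) and APOLD1 (0.84), for FABP5 PSMB8 (0.89), CD46 (0.89) and PDE2A (0.89), and for CD36 ESYT1 (0.88), TINAGL1 (0.87) and PPP2R5A (0.86). CAV1 was most like CALCRL (0.87), a receptor component, VIM (0.84), an intermediate filament, and TSPAN13 (0.84), which GPIHBP1 also had. For FABP3 the named ones were ARPP21 (0.93) and TRIM63 (0.91), a ubiquitin ligase of muscle. For VLDLR they were PLAAT1 (0.81), TIMM23 (0.80) and MTERF2 (0.79), and for the sparse SLC27A1 C7H19orf67 (0.82), IMPDH2 (0.78) and CLPX (0.77).

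Among the members, r was highest for CD36 with FABP4 (0.87), LPL with FABP4 (0.86) and GPIHBP1 with FABP5 (0.78). It was lowest for ACSL1 with FABP5 and for FABP4 with FABP3 (both -0.52).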

How the data were processed

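Nuclei were captured with 10x Genomics 3' reagents (version 3.1) and sequenced on a NovaSeq 6000, per the labels. The deposited files are unnormalised UMI counts of each gene in each barcode, from Cell Ranger 6.0.1 per the file headers and on ARS-UCD1.2 per the submitters' processing notes. The annotation release is not given in the sources used here, nor is the treatment of introns, which in nuclei could change every level. No coordinates are given, because the gene table at hand is of another assembly. It served only to find genes that overlap the members.

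Nuclei with at least 200 genes and under 10% mitochondrial UMIs were kept, and doublets were not removed. For each of 7 marker lists, a nucleus' share of UMIs was divided by the 99th percentile of that share over all nuclei. The highest type was taken with at least 3 markers seen and 1.5 times the next list. The members and lists were chosen with earlier results of these data known, and the thresholds were set with the data in view. All 10 members were to be named in every comparison, and genes of the wider list where they passed the test or were the most abundant of their role in a type. Exceptions are members too sparse for a comparison, and 3 list genes with 0 UMIs, named after their values were seen.

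Counts were summed per library and type and scaled per 1000000 UMIs with Python 3.11.15 and scipy 1.17.1. Intervals are exact (95%) and cover counting error only, as does the floor of 3 counts. Depot sums were tested with edgeR 4.0.16 (TMM scaling, filterByExpr) in R 4.3.3, with DESeq2 1.42.0 as an alternative. Clusters made without the members (scanpy 1.11.5, igraph 0.11.9) replaced the gate in another. Libraries of the same number come from the same animal, so the animal was also fitted as a block. Their deviations from the depot means correlated at -0.09 over all nuclei and at 0.13 in adipocyte nuclei. On simulated data, of 200 genes changed 8-fold, 7.5% were called at all nuclei (11143 genes), 14.5% at adipocyte (3082 genes) and 66% at endothelial nuclei (5249 genes). Every simulated gene had the common dispersion of its comparison, which was 0.3417, 0.2915 and 0.1019 in that order. The last was estimated with 1 intramuscular library. These shares hold for genes of that spread only, so they do not rank the comparisons by their power on the real data.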

Additional observations from a re-analysis of the deposited data

Results flagged for a closer look

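For CD36 and FABP4, endothelial nuclei stood above adipocyte nuclei in the 1 intramuscular library that held both and below them in both subcutaneous libraries. The endothelial minus adipocyte level of CD36 was 3020.0 CPM in intramuscular animal 1, against -585.9 CPM in subcutaneous animal 1 and -1491.6 CPM in subcutaneous animal 2. For FABP4 the same difference was 4516.5 CPM in intramuscular animal 1, against -1621.6 CPM and -3254.2 CPM in the subcutaneous animals. In capillary-marked nuclei, CD36 differed 1.06-fold and FABP4 1.00-fold between the depots of animal 1. Subcutaneous animal 2 held 785 CPM of CD36 and 0 of 21662 UMIs of FABP4 in such nuclei. Neither difference passed in the edgeR fit of the gap between depots. That fit held 1 intramuscular library, so it could not measure the intramuscular spread and cannot decide whether the depots differ.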

How the results depend on the processing

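Over the alternatives tried, the calls of single members that passed kept their direction, with 28 values past the threshold and 22 no longer past it. The members that did not pass gave 139 values with the same direction and call, 2 that came to pass and 17 of the other sign. In all nuclei 170 genes passed, against 332 by DESeq2, 444 with no filter, and 0 without muscle fibre and satellite nuclei, where 0 members passed. Leaving out each library in turn gave 24 (without intramuscular animal 1) to 411 (without subcutaneous animal 1) genes and 0 to 1 members. In adipocyte nuclei 22 genes and 0 members passed, against 47 genes by DESeq2, 64 with no filter, 11 with a gate ratio of 2, and 160 genes and 1 member (FABP5, higher) with clusters. Clusters left 1 adipocyte nucleus of intramuscular animal 2, so that fit set 1 intramuscular against 2 subcutaneous libraries. Leaving out each library gave 19 to 313 genes and 0 to 2 members. In endothelial nuclei 456 genes and 5 members passed, against 66 and 0 by DESeq2, 203 and 1 with clusters, 39 and 0 with a gate ratio of 2, and 52 and 0 in capillary-marked nuclei. The gate ratio and the capillary-marked nuclei were chosen after seeing the data. The cause of these changes was not tested.

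With the animal as a block, all nuclei gave 199 genes and 1 member, and adipocyte nuclei gave 35 genes and 0 members. The block changed the sign of FABP5 in all nuclei (-1.15) and no member's call. The endothelial comparison could not be fitted with a block or without either subcutaneous library, since no residual degrees of freedom were left, nor without intramuscular animal 1, since 1 depot was left.

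Between types, clusters gave 1 member (ACSL1) in place of 2 that was at least 2-fold higher in adipocyte than in endothelial nuclei, and 2 (FABP5 and GPIHBP1) in place of 1 in the opposite direction. Without subcutaneous animal 2 the last count was also 2, and 2 members (FABP3 and VLDLR) in place of 0 were higher in fibre than in adipocyte nuclei.

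None of the members whose log2 fold change took the other sign had passed. Leaving out each library in turn moved the values in all nuclei between -2.10 and 0.14 for CAV1, -0.56 and 2.62 for LPL, -2.24 and 0.78 for SLC27A1, -1.08 and 2.15 for GPIHBP1, and -3.97 and 1.41 for FABP5. In adipocyte nuclei the range was -0.49 to 0.05 (0.048) for CD36, -2.17 to 0.53 for LPL and -0.62 to 1.54 for FABP4. FABP5 in all nuclei was -0.04 (-0.038) without fibre and satellite nuclei. With clusters, the adipocyte values were 0.06 (0.061) for CD36 and 0.50 for LPL.

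Depth limits the sparse members most. SLC27A1 had 1 to 13 UMIs in the adipocyte sums and FABP3 7 UMIs in the intramuscular libraries, so their adipocyte levels could not be set in order. The intramuscular level in endothelial nuclei rests on 1 animal.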
